A study of Homo sapiens with 72 samples.

Results

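The mRNAs of 8 nonsense-mediated decay (NMD) factors, UPF1, UPF2, UPF3A, UPF3B, SMG1, SMG5, SMG6 and SMG9, were followed in A375 cells, an established human melanoma line. They were taken by symbol from the 44659 gene names of the count table, and all 8 were found. The data were 72 QuantSeq libraries, which count reads at the 3′ end of polyadenylated RNA, made from cytoplasmic RNA. Cells were transfected for 42 h with a pool of 2 siRNAs against CTU2, a subunit of a tRNA-thiolating enzyme (siCTU2), or with the control siRNA siGL2. Other cells grew for 18 h with glutamine (pQ) or deprived of glutamine (mQ). The siRNA and the medium conditions were analysed apart and are called the siRNA and the medium experiment. All cells then received triptolide (25 µM, spelled tryptolide in the labels), which blocks transcription, either alone (T arm) or together with the translation inhibitor cycloheximide at 100 µg/ml (TCHX arm). They were harvested at 0, 3 or 5 h, with 3 replicates in each of the 24 groups. The 0 h libraries therefore also had the inhibitors added just before harvest, and no library without triptolide was analysed here. The siRNAs were given as a pool, so that 1 siRNA could not be compared with the other.

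NMD degrades mRNAs on which ribosomes terminate in an unusual context, such as upstream of an exon junction complex or far from the poly(A) tail. The helicase UPF1 binds the mRNA and is joined by UPF2 and by UPF3A or UPF3B. It is then phosphorylated by SMG1, which works in a complex with SMG8 and SMG9. Phosphorylated UPF1 recruits SMG6, an endonuclease, and SMG5, which helps bring in deadenylation and decapping enzymes. Because NMD needs translation, its targets are kept when ribosomes are stopped, and several NMD factor mRNAs are known as NMD targets themselves.

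Libraries held 5987692 to 15534331 counts, and each NMD factor had 27 to 1905 counts in each of them. CTU2 was at 0.133 to 2.95 CPM (counts scaled to an equal library total) in 17 siCTU2 libraries and at 13.01 to 38.7 CPM in the 54 libraries of the other conditions. At 10.4 CPM, the library labelled siCTU2 TCHX 5 h replicate 3 lay between these ranges, above the other siCTU2 libraries and below all libraries of the other conditions. This library, mQ T 5 h replicate 3 and pQ TCHX 0 h replicate 3 detected 19896 to 20364 genes each, whereas the other 69 libraries detected 15507 to 17495. They also held the immune cell markers PTPRC (31.1 to 32.6 CPM) and CD3E (31.1 to 32.6 CPM), which reached at most 0.759 and 0.304 CPM elsewhere. CD68, a further immune cell marker, was present in all libraries (lowest 2.95 CPM, median 8.85 CPM). The presence of CD68 therefore did not set these 3 libraries apart. Over the list of 10 markers of other cell types, the summed level was 71.4 to 74.1 CPM in these 3 libraries and 3.04 to 21.2 CPM in the others, with COL3A1 at 0 in all. JUN, the gene used to check the transcription block, was at 25.9 CPM in mQ T 5 h replicate 3, against 1.18 and 0.225 CPM in replicates 1 and 2. In siCTU2 TCHX at 5 h it was at 23.9 CPM in replicate 3, against 4.16 and 8.51 CPM. In pQ TCHX at 0 h the values were alike, at 27.4 CPM against 27.2 and 29.8 CPM. Why these 3 libraries stood apart was not tested, and fits were also run without them. Calls and values that moved without them are given beside the results. Of the 10 melanoma lineage markers, SOX10 and MITF were present in all libraries, whereas MLANA and TYR reached at most 1.47 CPM. As these are bulk libraries, a lower level in every cell and a smaller share of cells with the mRNA cannot be told apart.

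CTU2 acts on the tRNAs that read lysine, glutamate and glutamine codons ending in A or G, and glutamine is the amino acid withdrawn in mQ, so the codon content of the 8 coding sequences is given here. UPF3B (X:119834022-119852998, GRCh38) has 17.8% AAA and GAA codons, a share above that of 99.4% of the 10741 genes tested at 0 h that have a reference (MANE Select) transcript in GENCODE release 44. UPF2 (10:11920022-12043170) has 13.3% and UPF3A (13:114281601-114305817) 10.9%. SMG1 (16:18804860-18926408) has 7.92%, a share above that of 71.6% of these genes. SMG6 (17:2059839-2303785) has 5.64% and SMG5 (1:156249224-156282825) 4.33%, on either side of the median gene at 5.46%. SMG9 (19:43727983-43754962) with 2.89% and UPF1 (19:18831959-18868230) with 1.43% lie further below it. Glutamine codons (CAA and CAG) make up 7.25% of UPF1, the highest share of the 8, and 3.73% of UPF3B, the lowest, against a median of 4.48%. In the 3′ untranslated region, SMG1 (4709 nt), SMG9 (3613 nt), UPF1 (1713 nt) and SMG6 (1649 nt) are above the median of 1431 nt. The start codon letters ATG stand in the 5′ untranslated region of 4 of the 8 (UPF2, SMG1, SMG5 and SMG9), against 41.4% of all genes, and 0 of the 8 have an exon junction more than 50 nt after the stop codon, against 0.214%.

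The 2 siRNAs of the pool are shown because they define the CTU2 comparison, together with the places in SMG6 that carry the same letters as their seed sites. Capitals mark the 7 mRNA bases that pair with bases 2 to 8 of the guide strand. Both sites lie in coding exons of CTU2, at 16:88713389-88713407 and 16:88714907-88714925 (GRCh38, plus strand). The SMG6 stretches are coding and lie on the minus strand at 17:2236527-2236545, 17:2186797-2186815 and 17:2065090-2065108.
siCTU2#1: ctatcaagctcATGACCAa
SMG6, siRNA 1 seed letters: tgctgcagcttATGACCAt
SMG6, siRNA 1 seed letters: tgaggaccaggATGACCAa
siCTU2#2: gcgtgaacatgAAGGACTt
SMG6, siRNA 2 seed letters: aagacaaggctAAGGACTt

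The sense strand of the mRNA was searched for ATGACCA and AAGGACT. Neither was found in the 3′ untranslated region of any of the 8 NMD factors, a region in which 21.6% of all genes hold at least 1 of them. In coding sequence, ATGACCA occurs in 15.9% and AAGGACT in 17.3% of all genes, whose median coding length of 1422 nt is below that of SMG6 (4260 nt), UPF1 (3357 nt) and SMG1 (10986 nt). UPF1 holds 2 ATGACCA and 1 AAGGACT, SMG1 holds 1 and 2, SMG6 holds 2 and 1, and SMG9 holds 1 and 0. UPF2, UPF3A, UPF3B and SMG5 hold 0 of either. These matches are a description, and whether the siRNAs act on any of them was not tested.

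The levels at the start of the time course were compared between siCTU2 and siGL2 in the T arm. UPF1, UPF3A, UPF3B and SMG1 were higher in siCTU2, by 1.22 to 1.90 times, while SMG5 fell to 0.441 times and SMG6 to 0.703 times its level in siGL2. UPF2 and SMG9 did not pass the test. Thus 4 of 8 rose and 2 fell, where 17.8% of 12292 genes rose and 18.2% fell (36% in either direction) at an adjusted p under 0.05. The median log2 difference was 0.21 over the 8 NMD factors and 0.00 over all genes. Overlap of groups is given below as a description, since the share of all genes without overlap was not counted.

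Among the UPF proteins, UPF1, the helicase, was at 103, 105 and 87.3 CPM in replicates 1, 2 and 3 of siCTU2 and at 79.0, 76.4 and 79.6 CPM in siGL2. The groups did not overlap, and the log2 difference was 0.33 ± 0.091 (SE), adjusted p = 0.00894. UPF2, which bridges UPF1 and UPF3 proteins, was at 55.0, 45.4 and 55.7 CPM against 54.1, 45.3 and 43.1 CPM. Its groups overlapped (log2 difference 0.13 ± 0.12 (SE), adjusted p = 0.424). UPF3A, a paralog of UPF3B, was at 49.0, 51.1 and 54.5 CPM against 30.5, 39.3 and 30.1 CPM, and all siCTU2 libraries were above all siGL2 libraries (log2 difference 0.63 ± 0.12 (SE), adjusted p = 5.23e-04). UPF3B, which links UPF2 to the exon junction complex, was at 95.9, 83.4 and 96.7 CPM against 49.3, 47.1 and 48.4 CPM. This was the largest rise among the 8, with a log2 difference of 0.93 ± 0.095 (SE), adjusted p = 4.69e-07. The TCHX arm at 0 h, a second set of libraries, gave a difference of 0.71 (adjusted p = 9.20e-06) for UPF3B. The labels do not say whether the 2 arms came from separate cultures.

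In the kinase complex, SMG1 was at 82.5, 93.4 and 88.1 CPM in siCTU2 and 70.9, 70.6 and 74.6 CPM in siGL2, without overlap (log2 difference 0.29 ± 0.087 (SE), adjusted p = 0.0157). SMG1 has near-identical copies in the genome, and 10 of its pseudogene names held 0 to 5.90% of the SMG1 count of a library, so that its level is uncertain. Its last exon also overlaps a long noncoding RNA gene on the other strand, whose reads cannot be told apart from those of SMG1 if counting ignored strand. Its call was lost without siCTU2 replicate 2, 0.25 (adjusted p = 0.0654), without siGL2 replicate 1, 0.27 (adjusted p = 0.0677), and without siGL2 replicate 2, 0.27 (adjusted p = 0.0534). SMG9, its partner, was at 25.6, 30.0 and 31.3 CPM against 21.1, 29.6 and 29.1 CPM, and the groups overlapped (log2 difference 0.12 ± 0.15 (SE), adjusted p = 0.558). In the TCHX arm its difference was 0.38 (adjusted p = 0.0442).

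Of the effectors, SMG5 was at 15.2, 17.6 and 12.5 CPM in siCTU2 and 38.0, 32.0 and 32.2 CPM in siGL2. The groups were far apart in the T arm, and in the TCHX arm, where the values were 11.8, 14.2 and 18.2 CPM against 34.5, 31.6 and 31.5 CPM. The log2 difference was -1.18 ± 0.15 (SE), adjusted p = 6.40e-06. SMG6, the endonuclease, was at 9.06, 11.99 and 11.1 CPM against 16.7, 11.9 and 17.3 CPM, with an overlap of the groups at the low end of siGL2. Its log2 difference of -0.51 ± 0.19 (SE), adjusted p = 0.0478 was the least firm call. It was lost with DESeq2, -0.51 (adjusted p = 0.0585), and in the TCHX arm, -0.00 (adjusted p = 0.989), where siCTU2 was at 13.3, 14.9 and 14.7 CPM and siGL2 at 13.7, 15.2 and 14.3 CPM. It was also lost without siCTU2 replicate 1, -0.41 (adjusted p = 0.156), siCTU2 replicate 3, -0.54 (adjusted p = 0.0687), siGL2 replicate 1, -0.45 (adjusted p = 0.149), or siGL2 replicate 3, -0.42 (adjusted p = 0.161). The last exon of SMG6 overlaps HIC1 on the other strand, and whether counting used strand is not given in the sources used here. HIC1 had 187 counts over all libraries.

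**Figure D1:**
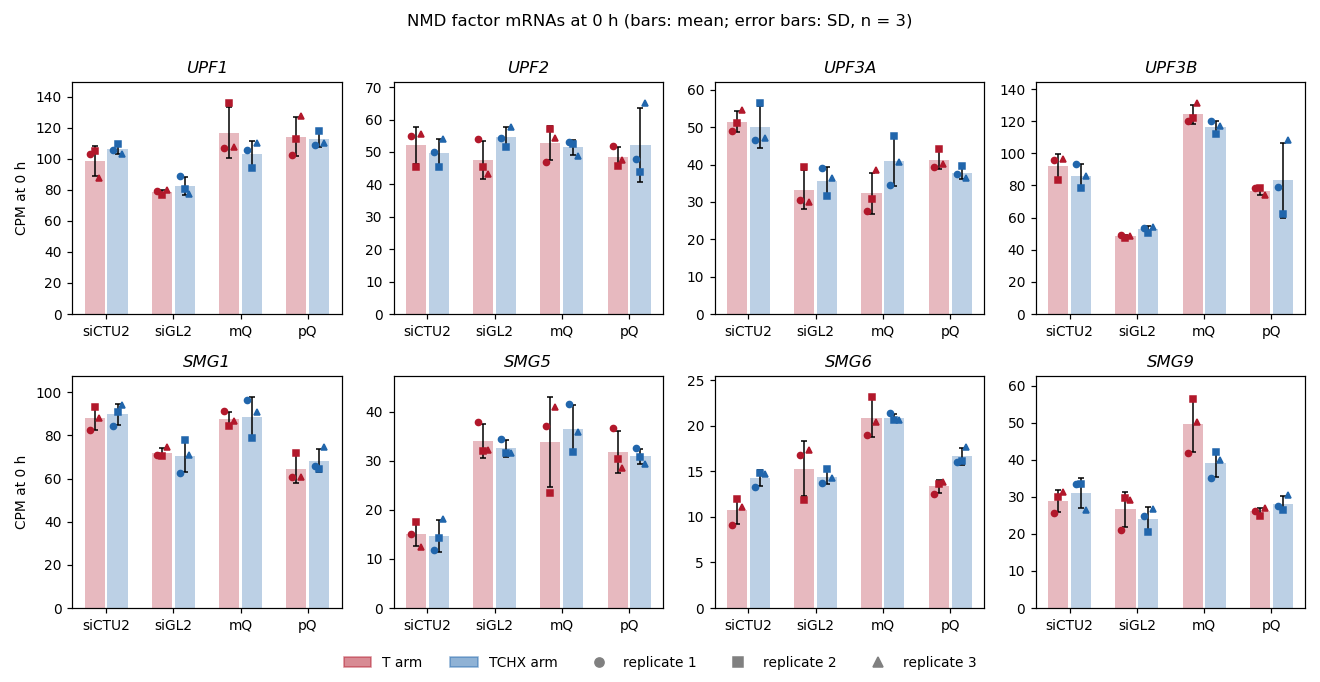
Levels of the 8 NMD factor mRNAs at 0 h in CPM (y axis, from 0) for the 4 conditions (x axis), with the mean as a bar, the SD of 3 replicates as an error bar and each library as a point, for the T arm (red) and the TCHX arm (blue). SMG5 was at 11.8 to 18.2 CPM in all siCTU2 libraries and at or above 23.5 CPM in all others, UPF3B was lowest in siGL2 and highest in mQ, and the T arm libraries of SMG9 in mQ stood at 41.8 to 56.4 CPM.

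Other genes of the pathway were taken from a list of 24, of which 23 could be tested (EIF4A3 had 1 count in all). Under siCTU2, 2 of 23 rose and 7 fell, where 17.8% and 18.2% of all genes did, with a median log2 difference of -0.17 against 0.00 over all genes. The cytoplasmic poly(A)-binding protein gene PABPC1 (0.45) and the decapping enzyme gene DCP2 (0.58) were those that rose. Those that fell were STAU1 (-1.24) and STAU2 (-0.24), which encode double-stranded RNA binding proteins, RBM8A (-0.76), a core subunit of the exon junction complex, RUVBL1 (-0.53) and RUVBL2 (-0.27), a pair of ATPases, the helicase gene MOV10 (-0.39) and SMG8 (-0.36). SMG8 of the SMG1 complex thus fell, while SMG9 of the same complex did not pass the test.

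The same comparison was made between cells without glutamine and cells in control medium. UPF3B, SMG1, SMG6 and SMG9 rose in mQ, by 1.41 to 1.98 times, and UPF1, UPF2, UPF3A and SMG5 did not pass the test. This was 4 of 8 higher and 0 lower, where 12.5% of 12374 genes rose and 12.4% fell (24.8% in either direction). The median log2 difference was 0.34 over the 8 and 0.01 over all genes. UPF3B and SMG1 also rose under siCTU2, whereas SMG6, which fell there, rose in mQ.

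SMG9 had the largest difference, at 41.8, 56.4 and 50.2 CPM in mQ and 26.2, 24.9 and 27.0 CPM in pQ, without overlap (log2 difference 0.98 ± 0.14 (SE), adjusted p = 8.07e-04). UPF3B was at 120.0, 122 and 131 CPM against 78.1, 78.4 and 73.9 CPM (log2 difference 0.75 ± 0.10 (SE), adjusted p = 5.00e-04). SMG6 was at 18.9, 23.1 and 20.5 CPM against 12.6, 13.6 and 13.9 CPM (log2 difference 0.70 ± 0.17 (SE), adjusted p = 0.0102). All mQ libraries were above all pQ libraries for these 3 genes, and for SMG1 too. How many of all genes were separated in this way, in this or the TCHX arm, was not counted. SMG1 was at 91.2, 84.2 and 86.9 CPM against 60.8, 72.0 and 60.8 CPM (log2 difference 0.49 ± 0.11 (SE), adjusted p = 0.00858). Without pQ replicate 1, SMG1 0.45 (adjusted p = 0.0546) and SMG6 0.65 (adjusted p = 0.0516) no longer passed the test.

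UPF3A was lower in mQ by value, at 27.7, 30.9 and 38.4 CPM against 39.4, 44.2 and 40.2 CPM, and its T arm groups did not overlap, but it did not pass the test (log2 difference -0.30 ± 0.15 (SE), adjusted p = 0.164). In the TCHX arm its groups overlapped, with mQ at 34.6, 47.6 and 40.6 CPM and pQ at 37.5, 39.6 and 36.3 CPM. UPF1 (0.09 ± 0.13 (SE)), UPF2 (0.18 ± 0.12 (SE)) and SMG5 (0.14 ± 0.19 (SE)) had overlapping groups. The mQ libraries of SMG5 were spread widely, at 37.0, 23.5 and 40.9 CPM.

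The TCHX arm at 0 h holds a pQ library with extra genes (replicate 3). With it, 0 of the 8 passed the test in that arm, although all mQ libraries of UPF3B, SMG1, SMG6 and SMG9 were above all pQ libraries there too. UPF3B in the pQ libraries of this arm was at 78.8, 62.5 and 108 CPM, the last value being that of the library with extra genes. Without that library the differences in the TCHX arm were 0.75 (adjusted p = 4.34e-05) for UPF3B, 0.57 (adjusted p = 0.00742) for SMG9, 0.47 (adjusted p = 0.00387) for SMG1 and 0.40 (adjusted p = 0.104) for SMG6. Among the other pathway genes, 4 of 23 rose in mQ and 2 fell, a share near that of all genes (12.5% and 12.4%). Those that rose were PABPC1 (0.50), the exonuclease gene XRN1 (0.48), STAU2 (0.46) and CASC3 (0.31), a core subunit of the exon junction complex. The decapping adaptor gene PNRC2 (-1.04) and SMG8 (-0.90) fell, so that SMG8 and SMG9 of the SMG1 complex changed in opposite directions.

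How fast the NMD factor mRNAs were lost was read from the T arm. Counts were scaled to 198 stable genes in the siRNA experiment and 82 in the medium experiment, chosen after the study's methods for a CPM that rose during the block, and 0 of the NMD factors were among them. Levels are given as percent of the mean 0 h level of the replicate. After 3 h of triptolide, SMG9 was the lowest of the 8 by the mean in all 4 conditions, and SMG5 was the highest. Those that fell at an adjusted p under 0.05 were 5 of 8 in siCTU2, 6 in siGL2, 6 in mQ and 7 in pQ, where 36%, 28.6%, 55.4% and 55.2% of all genes fell (37.2%, 29.7%, 56.5% and 56.3% changed in either direction). None of the 8 rose in any condition, where 1.21%, 1.05%, 1.1% and 1.06% of all genes did. The medians of the 8 were -0.71, -0.74, -0.92 and -0.82, beside -0.55, -0.47, -0.71 and -0.69 over all genes.

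SMG9 stood at 30.3, 36.9 and 29.8% of its 0 h level in siCTU2, 31.9, 40.6 and 28.0% in siGL2, 16.7, 13.6 and 52.8% in mQ and 26.5, 30.4 and 28.8% in pQ. The log2 change was -1.61 ± 0.23 (SE), -1.64 ± 0.21 (SE), -1.96 ± 0.60 (SE) and -1.79 ± 0.21 (SE), and it passed the test in all 4. In mQ, replicate 3 stood apart from replicates 1 and 2. At 5 h the T arm values were 16.2, 28.5 and 21.3%, 23.8, 14.9 and 15.7%, 6.72, 6.42 and 44.5% and 18.3, 15.5 and 20.2% in the same order of conditions. The mQ library with extra genes gave the last of its 3 values, while the other mQ libraries of SMG9 were the lowest of all. Without replicate 3, the 3 h change in mQ was -2.88 (adjusted p = 3.09e-09), without replicate 1 it was -1.78 (adjusted p = 0.0651) and without replicate 2 it was -1.58 (adjusted p = 0.141).

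UPF2 fell by a log2 change of 1.17 in siCTU2, 0.80 in siGL2, 1.35 in mQ and 1.16 in pQ, and its T arm libraries at 3 h ranged from 33.5% to 61.8% of the 0 h level. UPF1, UPF3B and SMG1 passed the test in all 4 conditions as well, with log2 changes of -0.71 to -1.16. Their T arm libraries at 3 h were at 45.3% to 67.5% for UPF1, 42.9% to 75.8% for UPF3B and 46.6% to 69.9% for SMG1. SMG6 fell in siGL2 (-0.63), mQ (-0.95) and pQ (-0.59), and its value in siCTU2 was -0.30 ± 0.20 (SE). UPF3A fell in pQ (-0.74) and was at -0.56, -0.55 and -0.45 elsewhere. SMG5 did not pass the test in any condition, with log2 changes of -0.40, -0.35, -0.28 and -0.51 and SEs of 0.29 to 0.43.

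The scale sets these changes. With TMM scaling, which centres the bulk of genes near 0, the median over all genes moved to within 0.02 of 0, from the values given above. Genes that rose against genes that fell then numbered 216 and 1064 in siCTU2 (165 and 4904 with stable genes), 173 and 1086 in siGL2 (138 and 3766), 186 and 795 in mQ (148 and 7451) and 189 and 1054 in pQ (141 and 7369). SMG9 still fell in siCTU2 (-1.07), siGL2 (-1.16) and pQ (-1.09), and its value in mQ was -1.21 (adjusted p = 0.195). UPF2 fell in siCTU2 only, and none of the other 6 passed the test. The sign of SMG6 in pQ turned to 0.12 (adjusted p = 0.827), and the values of SMG5 in all 4 conditions, of UPF3A in mQ and of SMG6 in siCTU2 also turned positive without passing the test.

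**Figure D2:**
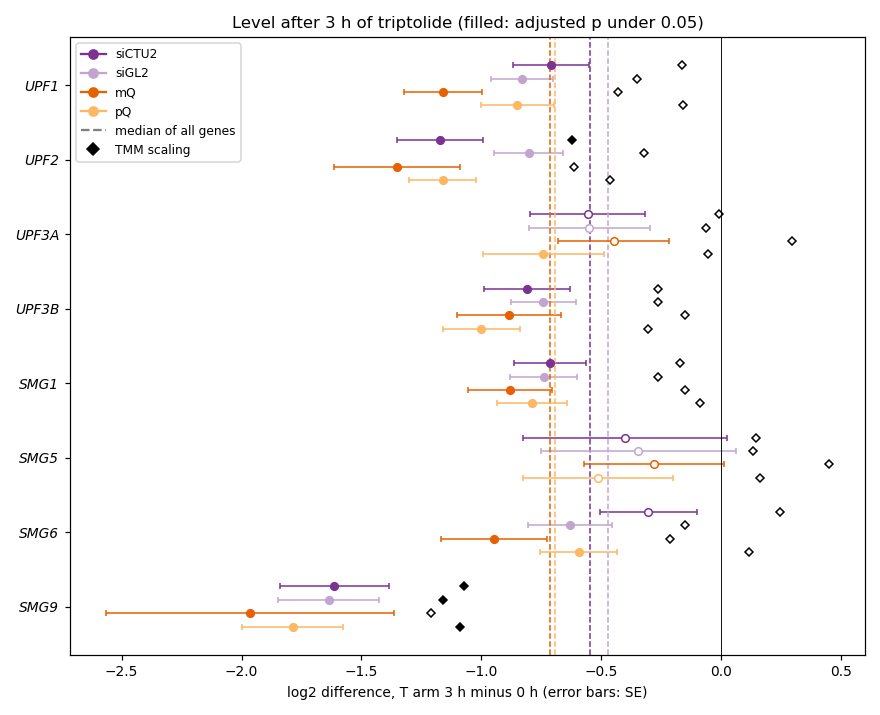
Log2 change of each NMD factor in the T arm from 0 to 3 h (x axis), scaled to stable genes, with its SE, for the 4 conditions (colours), with filled circles for an adjusted p under 0.05, the median of all genes as dashed lines and the TMM-scaled value as a diamond. SMG9 lies lowest, between -1.96 and -1.61, and the diamonds lie to the right of the circles, with SMG5 in all conditions, SMG6 in siCTU2 and pQ and UPF3A in mQ above 0.

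Whether translation was needed for this loss was read from the difference between the TCHX and the T arm, averaged over 3 and 5 h. With cycloheximide, UPF1, UPF2, UPF3B, SMG1, SMG6 and SMG9 were kept at higher levels in siCTU2, siGL2 and pQ, and UPF1 and SMG6 in mQ. These were 6, 6 and 6 of 8 in siCTU2, siGL2 and pQ, where 21.0%, 12.1% and 12.3% of all genes were higher, and 2 of 8 in mQ, where 5.12% were (21.1%, 12.7%, 12.7% and 5.24% in either direction). None of the 8 was lower in TCHX by edgeR, whether at an adjusted p or at an unadjusted p under 0.05, where 0.169%, 0.555%, 0.457% and 0.119% of genes were lower in siCTU2, siGL2, pQ and mQ. UPF3A and SMG5 did not pass the test in any condition. The median of the 8 was 0.54 in siCTU2, 0.53 in siGL2, 0.46 in pQ and 0.41 in mQ, against 0.22, 0.05, 0.06 and 0.05 over all genes. Arm overlaps and replicate pairs below describe each factor alone, since their share over all genes was not counted. Apart from those with extra genes, the 5 h libraries of replicate 3 shared deviations from their group means over all genes. These deviations correlated at 0.733 to 0.762 in the siRNA and 0.751 to 0.760 in the medium experiment. Without the 5 h libraries of replicate 3, 2698 of 13472 genes differed between the arms in siGL2 (1670 of 13161 with them). In siCTU2, 2803 of 13941 did (2881 of 13638). In both, 6 of the 8 were still higher.

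SMG9 had the largest effect in each condition. Its TCHX libraries at 3 h were at 85.9, 92.2 and 68.1% in siCTU2, 62.1, 76.2 and 59.8% in siGL2, 62.4, 51.2 and 55.7% in mQ and 68.5, 67.4 and 55.8% in pQ. At 5 h they were at 69.4, 81.9 and 80.1%, 87.0, 69.0 and 62.8%, 70.8, 50.5 and 77.8% and 53.2, 78.7 and 106%. Set beside the T arm values above, every TCHX library of SMG9 was above its T library of the same replicate and time (24 of 24), and the arms did not overlap in 7 of the 8 pairs of groups. The exception was mQ at 3 h. The log2 effect was 1.57 ± 0.16 (SE), adjusted p = 1.86e-06 in siCTU2, 1.5 ± 0.15 (SE), adjusted p = 2.09e-06 in siGL2 and 1.65 ± 0.15 (SE), adjusted p = 4.62e-07 in pQ. In mQ it was 1.33 ± 0.42 (SE), adjusted p = 0.0743, and without the mQ library with extra genes 2.16 (adjusted p = 2.40e-05).

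SMG6 had the next largest effect by value in siCTU2, mQ and pQ, and UPF2 in siGL2. In the T arm at 3 h it was at 62.9, 60.3 and 90.8% in siCTU2, 57.6, 67.7 and 72.3% in siGL2, 57.3, 45.9 and 51.3% in mQ and 57.2, 54.6 and 70.1% in pQ. With cycloheximide it was at 137, 112 and 121%, 98.3, 109.97 and 81.3%, 79.4, 73.4 and 70.6% and 93.9, 81.5 and 90.8%. In siCTU2 the TCHX libraries were all above the 0 h level, whereas in mQ they were all below it. At 5 h the T arm values were 41.4, 47.1 and 36.9%, 46.2, 63.0 and 54.0%, 37.9, 33.5 and 62.5% and 50.4, 45.9 and 54.5%. The TCHX values at 5 h were 146, 126 and 112%, 94.8, 97.9 and 78.7%, 76.8, 66.9 and 82.0% and 102, 94.0 and 123%. The arms did not overlap in any of the 8 pairs of groups, and the log2 effects were 1.19 ± 0.14 (SE), adjusted p = 8.88e-06 in siCTU2, 0.65 ± 0.12 (SE), adjusted p = 0.00139 in siGL2, 0.64 ± 0.15 (SE), adjusted p = 0.0234 in mQ and 0.81 ± 0.11 (SE), adjusted p = 5.65e-05 in pQ.

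At 0 h, SMG6 already stood higher in the TCHX arm in 2 conditions, with 13.3, 14.9 and 14.7 CPM against 9.06, 11.99 and 11.1 CPM in siCTU2 and 16.1, 16.2 and 17.7 CPM against 12.6, 13.6 and 13.9 CPM in pQ. That 0 h gap is part of the effects above. With it subtracted, the effect of SMG6 was 0.85 (adjusted p = 0.0395) in siCTU2, 0.69 (adjusted p = 0.0936) in siGL2, 0.60 (adjusted p = 0.545) in mQ and 0.57 (adjusted p = 0.121) in pQ. For SMG9 it was 1.54 (adjusted p = 0.00168), 1.62 (adjusted p = 9.40e-04), 1.63 (adjusted p = 0.545) and 1.61 (adjusted p = 5.79e-04). Of the 8, 4 passed the test in this form in siCTU2 (UPF2, SMG1, SMG6 and SMG9), 1 in siGL2 (SMG9), 0 in mQ and 2 in pQ (UPF2 and SMG9). Without the libraries with extra genes, 3 passed in siCTU2, 4 in mQ and 2 in pQ, and SMG6 was at 0.89 (adjusted p = 0.0336), 0.77 (adjusted p = 0.0127) and 0.53 (adjusted p = 0.297). SMG1 in siCTU2 was then at 0.62 (adjusted p = 0.0557).

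UPF2 was at 46.1, 57.2 and 38.5% in the T arm and 79.0, 83.4 and 76.3% in the TCHX arm of siCTU2 at 3 h. In siGL2 the values were 47.4, 61.8 and 49.8% against 75.2, 77.5 and 83.3%. The arms were apart in 7 of 8 pairs of groups, the exception being mQ at 5 h, where the T library with extra genes was at 83.0%. The log2 effects were 0.92 ± 0.13 (SE), adjusted p = 3.74e-05 in siCTU2, 0.69 ± 0.10 (SE), adjusted p = 1.22e-04 in siGL2, 0.50 ± 0.18 (SE), adjusted p = 0.125 in mQ and 0.66 ± 0.098 (SE), adjusted p = 1.05e-04 in pQ.

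UPF1 showed a smaller but regular difference. Over both times and all conditions, its T libraries were at 37.9% to 67.5% and its TCHX libraries at 55.0% to 92.4%. The arms did not overlap in any of the 8 pairs of groups, a count without a share of all genes beside it. Its log2 effects were 0.50, 0.44, 0.57 and 0.42 in siCTU2, siGL2, mQ and pQ, with SEs of 0.091 to 0.11. UPF3B (T 35.1% to 75.8%, TCHX 54.5% to 94.1%) was higher in TCHX in 23 of 24 replicate pairs, with effects of 0.49, 0.56, 0.32 and 0.51. SMG1 (T 40.3% to 73.4%, TCHX 55.3% to 93.9%) was also higher in 23 of 24, with effects of 0.57, 0.49, 0.31 and 0.39. The mQ values of UPF3B (adjusted p = 0.262) and SMG1 (adjusted p = 0.168) did not pass the test.

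UPF3A and its paralog UPF3B had different values under cycloheximide. UPF3A was at 31.1% to 95.6% in T and 37.0% to 90.7% in TCHX, the arms overlapped in 7 of 8 pairs of groups, and TCHX was higher in 18 of 24 replicate pairs. Its log2 effects were 0.17 ± 0.17 (SE), 0.29 ± 0.18 (SE), 0.01 ± 0.16 (SE) and 0.11 ± 0.18 (SE) in siCTU2, siGL2, mQ and pQ. The difference between the paralogs was not tested.

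SMG5 was higher in TCHX in 15 of 24 replicate pairs, and its arms overlapped in all 8 pairs of groups. Its effects were 0.30 ± 0.30 (SE), 0.01 ± 0.29 (SE), -0.15 ± 0.21 (SE) and 0.13 ± 0.22 (SE). In siGL2 at 5 h, SMG5 was at 68.9, 82.6 and 21.4% in T and 63.6, 83.1 and 27.2% in TCHX, and in siCTU2 at 96.3, 94.9 and 17.2% and 94.4, 45.4 and 108%. Replicate 3 was the lowest of the 3 in these groups, except in the library labelled siCTU2 TCHX 5 h, 1 of those with extra genes. Without the 5 h libraries of replicate 3, the effects of SMG5 were -0.07 (adjusted p = 0.858), -0.02 (adjusted p = 0.935), 0.02 (adjusted p = 0.957) and 0.13 (adjusted p = 0.631).

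**Figure D3:**
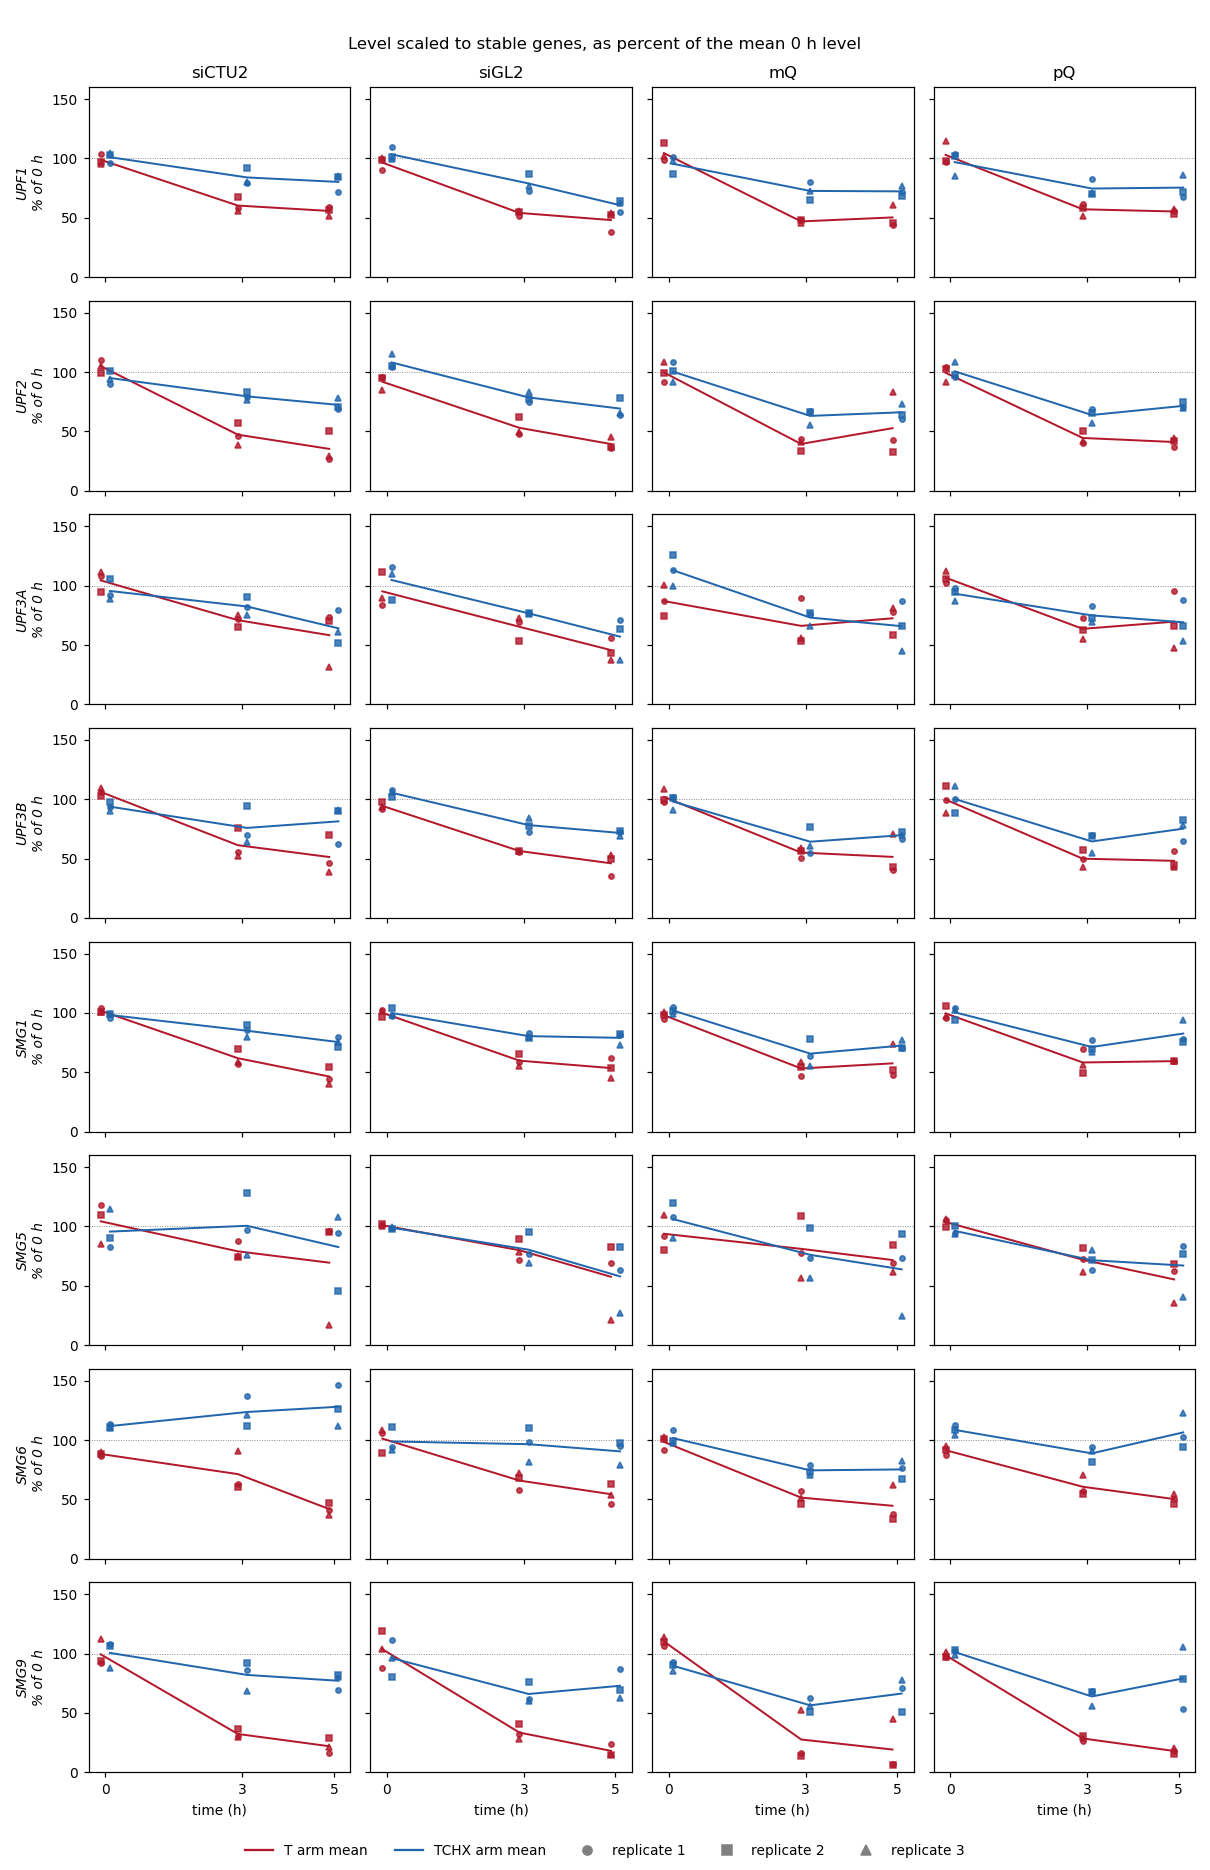
Level of each NMD factor (rows) in each condition (columns) as percent of its mean 0 h level (y axis) at 0, 3 and 5 h (x axis), scaled to stable genes, with lines through the means of the 3 replicates and each library as a point, for the T arm (red) and the TCHX arm (blue). The TCHX means of SMG9 and SMG6 lie above the T means, while the points of SMG5 overlap between the arms in every panel. The SMG9 libraries of mQ at 5 h in the T arm stood at 6.72%, 6.42% and 44.5%.

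In mQ, the number of calls depended on 1 library. Without mQ T 5 h replicate 3, the library with extra genes, 6 of the 8 were higher with cycloheximide, as in the other conditions, and 2882 of 13639 genes were. The effects were then 0.66 (adjusted p = 1.17e-04) for UPF1, 0.77 (adjusted p = 1.03e-04) for UPF2, 0.50 (adjusted p = 0.00466) for UPF3B, 0.44 (adjusted p = 0.00398) for SMG1 and 0.81 (adjusted p = 4.24e-05) for SMG6. UPF3A was at 0.10 (adjusted p = 0.728) and SMG5 at -0.15 (adjusted p = 0.707). In that library the level of UPF2 was 83.0%, of UPF3B 70.4% and of SMG1 73.4%, against at most 51.7% in the other mQ T libraries at 5 h for these 3. JUN, the check of the transcription block, was at 25.9 CPM there, against 1.18 and 0.225 CPM in those other libraries. Whether transcription was blocked to the same extent in that library was not tested. Without the siCTU2 TCHX 5 h library with extra genes, 6 of 8 were higher in siCTU2, as with it.

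With TMM scaling the medians over all genes were within 0.04 of 0 in all 4 conditions, a shift of 0.22 in siCTU2 and of 0.08 or less elsewhere. Genes higher and lower then numbered 1829 and 552 in siCTU2 (2858 and 23 with stable genes), 1379 and 349 in siGL2 (1597 and 73), 1006 and 187 in mQ (688 and 16) and 1395 and 223 in pQ (1640 and 61). SMG6 and SMG9 were higher in all 4 conditions under this scale, UPF2 in siCTU2, siGL2 and pQ, UPF3B in siGL2 and pQ, SMG1 in siCTU2 and siGL2 and UPF1 in mQ. The values of UPF3A in siCTU2 and mQ and of SMG5 in siGL2 turned negative without passing the test.

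**Figure D4:**
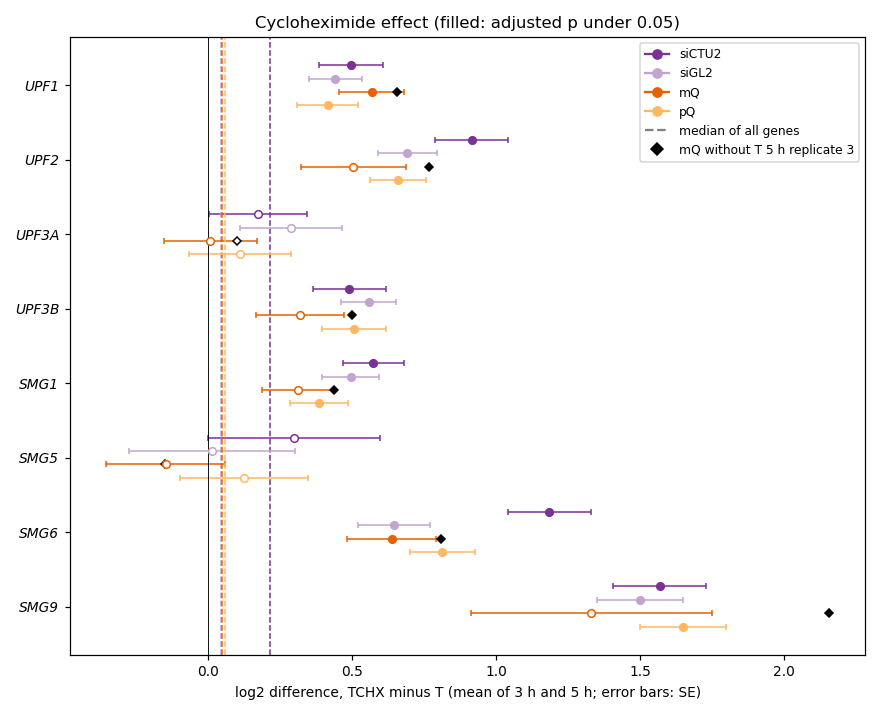
Log2 difference between the TCHX and T arms, mean of 3 and 5 h (x axis), for each NMD factor (y axis) in the 4 conditions (colours), with its SE, filled circles for an adjusted p under 0.05 and the median of all genes as dashed lines. Black diamonds give mQ without T 5 h replicate 3, where SMG9 moved from 1.33 to 2.16. SMG9 is highest in every condition, and UPF3A and SMG5 have open circles throughout.

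The effect of cycloheximide was then compared between conditions. None of the 8 NMD factors differed between siCTU2 and siGL2 by edgeR at an adjusted p under 0.05, where 0.379% of 14259 genes did (0.351% higher and 0.0281% lower in siCTU2), and 1, SMG6, had an unadjusted p under 0.05. With DESeq2, 0 of the 8 passed, as did 163 of the 11201 genes given an adjusted p. SMG6 had the largest value, a log2 difference of 0.54 ± 0.18 (SE), adjusted p = 0.233 with an unadjusted p of 0.00476. The next were SMG5 (0.29 ± 0.44 (SE)) and UPF2 (0.22 ± 0.16 (SE)), and the other 5 lay between -0.11 and 0.08 with SEs of 0.14 to 0.25. The median over all genes was 0.14, and with TMM scaling, where it was -0.01, SMG6 was at 0.39 (adjusted p = 0.652). With the 0 h difference subtracted, that of SMG6 was 0.16 (adjusted p = 0.94). Without the siCTU2 library with extra genes, it was 0.58 (adjusted p = 0.291), and 0.19 (adjusted p = 0.969) with the 0 h difference subtracted.

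The translation-dependent decay (TDD) index of the study is the TCHX level minus the T level as a share of the 0 h level. The index of SMG6, as the mean of 3 and 5 h, was 0.90, 0.66 and 0.53 in replicates 1, 2 and 3 of siCTU2 and 0.45, 0.39 and 0.17 in siGL2. The groups did not overlap. The difference was 0.36 ± 0.074 (SE) by limma, with an unadjusted p of 8.66e-04 and an adjusted p of 0.484. Of 12263 genes, 0.0% passed the threshold and 969 had an unadjusted p under 0.05. This fit entered the 3 h and 5 h values of a replicate separately, although both are divided by the same 0 h level. Its SE and p therefore do not measure the spread of the replicate means alone. With each arm divided by its own 0 h library, the difference was 0.14 (adjusted p = 0.34), and without the value that uses the siCTU2 library with extra genes 0.32 (adjusted p = 0.397). SMG9 had the highest index of the 8 in siGL2, mQ and pQ, at 0.47, 0.45 and 0.39 in siGL2, and its index in siCTU2 was 0.54, 0.54 and 0.49. The remaining 7 differences lay between -0.03 and 0.17. That of SMG5 rested on that library and was -0.01 (adjusted p = 0.995) without it.

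Between mQ and pQ, 0 of the 8 differed in the cycloheximide effect, in the loss over 3 h or in the TDD index, at an adjusted or an unadjusted p under 0.05, where 0.0% of all genes passed the adjusted threshold in each and 525, 356 and 521 had an unadjusted p under 0.05. DESeq2 gave 2 genes for the cycloheximide effect and 2 for the loss, and 0 of the 8 NMD factors. Log2 differences in the cycloheximide effect ran from -0.32 ± 0.47 (SE) for SMG9 to 0.15 ± 0.15 (SE) for UPF1. For SMG9, replicate 3 decided the value. Without replicate 3 it was 0.92 (adjusted p = 0.0287), and without the libraries with extra genes 0.51 (adjusted p = 0.706). The TDD index of SMG6 was 0.31, 0.30 and 0.19 in mQ and 0.44, 0.37 and 0.45 in pQ, a difference of -0.15 ± 0.070 (SE), or -0.10 (adjusted p = 0.442) without the values that use a library with extra genes. The loss over 3 h did not differ between siCTU2 and siGL2 for any of the 8 either, at an adjusted or unadjusted p under 0.05 (0.0% of 14259 genes by edgeR, 414 at an unadjusted p under 0.05, 8 by DESeq2). The largest value was that of UPF2, -0.37 ± 0.22 (SE).

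Among the other pathway genes, 8 of 23 were higher with cycloheximide in siCTU2, 2 in siGL2, 2 in mQ and 4 in pQ, where 21.0%, 12.1%, 5.12% and 12.3% of all genes were, and 0 were lower. Their median effects were 0.31, 0.02, 0.03 and 0.03, against 0.22, 0.05, 0.05 and 0.06 over all genes. SMG8, the partner of SMG9, was at 1.63, 0.96 and 1.22 in siCTU2, siGL2 and pQ, where it passed the test, and did not pass in mQ. DCP1A, a decapping activator, was higher in all 4 (0.71, 0.67, 0.80 and 0.58). The release factor gene GSPT2 was higher in siCTU2 (0.76), mQ (1.44) and pQ (1.08), and CASC3 in siCTU2 (0.48) and pQ (0.31). PNRC2 (1.04), DCP2 (0.51), RBM8A (0.49) and NBAS (0.40) were higher in siCTU2, where the median over all genes was 0.22.

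Of 6 NMD factor mRNAs described as NMD targets themselves (UPF1, UPF2, UPF3B, SMG1, SMG5 and SMG6), 5 were higher with cycloheximide in siCTU2, 5 in siGL2, 2 in mQ and 5 in pQ, beside 21.0%, 12.1%, 5.12% and 12.3% of all genes. SMG5 was the factor of this list that did not pass in any condition. SMG9, which had the largest effect among the 8, is not on that list. Of 12 other known NMD targets, 7, 6, 4 and 7 were higher in siCTU2, siGL2, mQ and pQ. The medians of the 12 were 0.82, 0.51, 0.22 and 0.48. Their values ran from -0.13 to 3.32, -0.06 to 5.62, -0.24 to 2.72 and -0.12 to 4.65. Among these, the stress gene GADD45A was at 1.63, 1.71, 2.22 and 2.30, and the transcription factor gene ATF4 at 1.07, 0.97, 0.87 and 0.86. The effects of SMG9 were close in size to those of GADD45A in siCTU2 and siGL2, and above the median of the 12 in every condition.

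**Figure D5:**
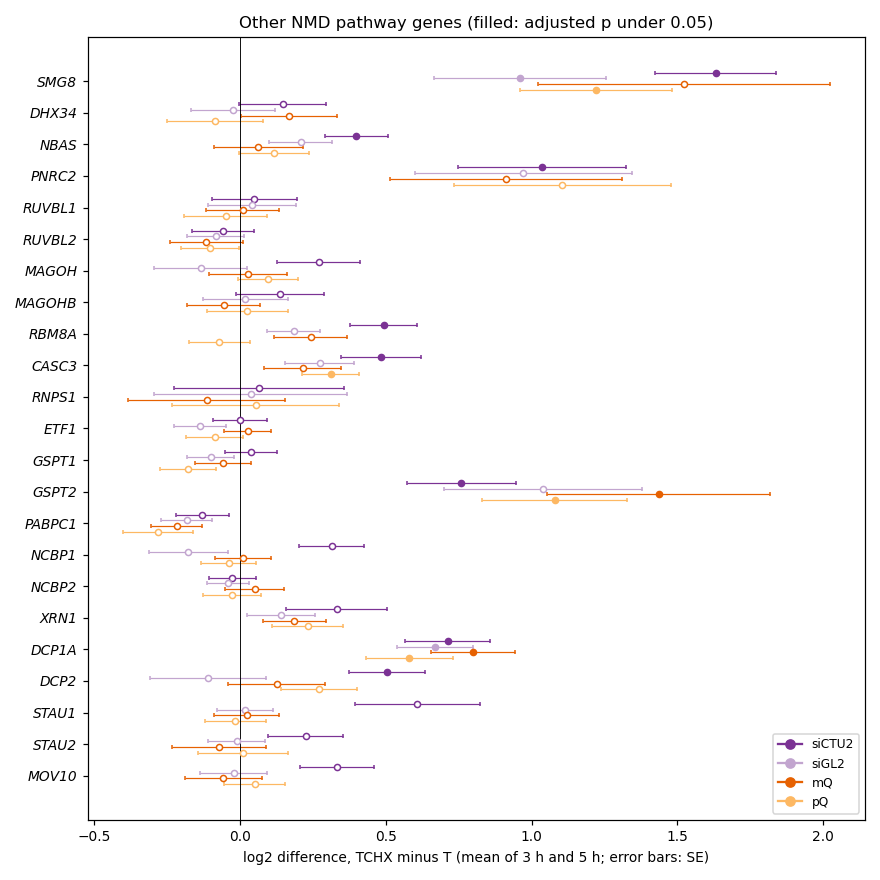
Log2 difference between the TCHX and T arms, mean of 3 and 5 h (x axis), for 23 other genes of the pathway (y axis) in the 4 conditions (colours), with its SE and filled circles for an adjusted p under 0.05. DCP1A is filled in all 4 conditions, SMG8 in all but mQ, and the filled circles number 8 in siCTU2, 2 in siGL2, 2 in mQ and 4 in pQ.

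The genes whose levels were most like those of each NMD factor were sought by Pearson's r over the 24 group means of log2(CPM + 1), among 8223 genes. The groups share library scale and treatment, so that r is given as a description. SMG9 was most like CCDC174 (0.978) and SIRT7 (0.977), and SMG5 like OCRL (0.972) and CMTR1 (0.971). UPF2 was most like ZNF408 (0.961) and ARID4B (0.959), and UPF1 like NR2F6 (0.950) and ZNF768 (0.929). UPF3B was most like FBRS (0.938) and RAB3GAP1 (0.930), and UPF3A like ISCA2 (0.928) and NCAPD2 (0.913). SMG1 was most like GADD45A (0.937), 1 of the known NMD targets above, and KCNN4 (0.933), and SMG6 like NAT9 (0.933) and AP5Z1 (0.909). Among the 8 themselves, UPF2 and SMG9 were the most alike (0.902), and UPF3A and SMG5 the least alike (-0.445).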

How the data were processed

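The labels gave 72 libraries of cytoplasmic RNA in 24 groups of 3 replicates. The values were deposited by the authors as raw counts per gene, made with fastp 0.20.1, HISAT2 2.2.1 (GRCh38.p13) and HTSeq 0.13.5 on exons of the NCBI annotation, per the submitters' processing notes and the study's methods. No step for molecular identifiers is stated, so that counts may include PCR copies. Libraries held 5987692 to 15534331 counts, which limits the precision of low counts, down to 27 for a factor.

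Here counts were filtered by filterByExpr and tested with the quasi-likelihood test of edgeR 4.0.16 (R 4.3.3) over all genes, with Benjamini-Hochberg adjustment. TMM scaling was used at 0 h and stable genes in the time course (CPM over 0.2 and rising at least 1.1 times). Changes over time are therefore relative to those genes. The TDD index was tested with limma 3.58.1 for genes with at least 10 normalized counts at 0 h. Time and replicate were terms of that fit, and the 3 h and 5 h values of a replicate were entered separately. DESeq2 1.42.0 was an alternative. Scripts were tested on simulated data.

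The labels do not say that replicates are separate cultures, so that p-values measure only the spread between these libraries. The members and gene lists were chosen with earlier results of these data known. All 8 factors were named, other pathway genes with values where they passed the test, up to 4 known NMD targets, and the 2 genes with the highest r for each factor (mean CPM of at least 10). Alternatives were other scalings, tools, filters, times and arms, and leaving out replicates or libraries. Transcript sequences were from GENCODE release 44 and siRNA sequences from the study's reagent list. An item of the pathway list is not reported here.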

Additional observations from a re-analysis of the deposited data

How the results depend on the processing

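Numbers of the 8 NMD factors past the test are given, with the value reported above in parentheses. At 0 h, leaving out 1 replicate gave 4 to 5 for siCTU2 against siGL2 (6) and 2 to 5 for mQ against pQ (4), and the TCHX arm gave 0 for mQ against pQ. For the cycloheximide effect in siCTU2 (6), 3 h alone gave 3, subtracting the 0 h difference 4, or 3 without the library with extra genes, and leaving out 1 replicate 3 to 6. In siGL2 (6), 3 h alone gave 3, subtracting the 0 h difference 1 and leaving out 1 replicate 2 to 6. In mQ (2), 3 h alone, 5 h alone and subtracting the 0 h difference gave 0, genes stable at both times 4, no filter on low counts 4, leaving out the library with extra genes 6, or 4 with the 0 h difference also subtracted, leaving out the 5 h libraries of replicate 3, 6, and leaving out 1 replicate 0 to 6. In pQ (6), 3 h alone gave 1, subtracting the 0 h difference 2, with or without the library with extra genes, genes stable at both times 2 and leaving out 1 replicate 3 to 6. For the loss over 3 h, TMM gave 2 in siCTU2 (5), 1 in siGL2 (6), 0 in mQ (6) and 1 in pQ (7), the TCHX arm gave 0 in siCTU2, 3 in siGL2 and 3 in mQ, and leaving out 1 replicate gave 2 to 6, 3 to 7, 3 to 6 and 5 to 8. Leaving out the 5 h libraries of replicate 3, and the combination of subtraction with leaving out libraries, were chosen after seeing the data. The cycloheximide effect of mQ minus pQ (0) gave 0 to 1. The sign turned for SMG6 in pQ with TMM, to 0.12, and for SMG9 in mQ minus pQ without replicate 3, to 0.92 (-0.68 to 0.92 with 1 replicate left out). Apart from the scaling, the cause was not tested. Of 1536 values for single factors under the alternatives, 1354 kept their side of the threshold, 142 no longer passed it, 38 newly passed it and 2 reversed. Of the 1354, 140 changed sign while past the threshold in neither fit.

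The edgeR and DESeq2 tests reported above did not use replicate numbers to pair libraries, since the labels give no shared culture or day. Not every pair of same-numbered libraries had correlated deviations from the group means. The TDD index, the percent of the 0 h level and the replicate pairs did match libraries by number. The limma fit also had a replicate term. Library names share a prefix per replicate number across all conditions, and its meaning is not stated. The correlation was over 0.1 in 126 of 198 pairs in the siRNA experiment (-0.24 to 0.76, median 0.14) and in 114 of 198 in the medium experiment (-0.46 to 0.76, median 0.12). A library correlated best with its own number, out of 3 candidates, in 172 and 152 of them. The highest values were between 5 h libraries of replicate 3. Between the 0 h T arms of the conditions, values were 0.0568 to 0.187 in the siRNA and -0.0971 to 0.0701 in the medium experiment. There, 3 of 3 and 1 of 3 correlated best with their own number. These values are a hint of pairing in part of the groups, and the labels do not state the pairing. With a replicate block, 6 and 4 passed at 0 h, 6, 6, 3 and 6 for the cycloheximide effect and 5, 6, 6 and 8 for the loss in siCTU2, siGL2, mQ and pQ. Over all genes, calls across the alternatives ranged from 3611 to 6673 (4429) for siCTU2 at 0 h, 810 to 4751 (3071) for mQ at 0 h, and 590 to 3291 (2881), 461 to 2698 (1670), 1 to 3411 (704) and 380 to 2351 (1701) for the cycloheximide effect in siCTU2, siGL2, mQ and pQ. For the loss over 3 h the ranges were 517 to 8888 (5069), 1259 to 8375 (3904), 981 to 11406 (7599) and 1243 to 10430 (7510).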
